A study of Mus musculus with 6 samples.

Results

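Blood and lymphatic endothelial genes were followed in the colon of Islr knockout mice and of controls. The set held 36 listed genes of 23462 named genes on the array: 24 genes of blood or general vascular endothelium, 3 genes of lymphatic endothelium (Flt4, Lyve1 and Prox1), the 2 neuropilins (Nrp1 and Nrp2) and 7 ligands of the VEGF and angiopoietin families. All 36 had at least 1 probe. Colon RNA came from 3 control and 3 Islr knockout mice, all male, with 1 single-colour Agilent array per mouse. Islr encodes a secreted protein with leucine-rich repeats and an immunoglobulin domain. Per the sample source, mice of both genotypes had drunk 3.5% dextran sulfate sodium, which injures the colonic epithelium, for 5 days and had recovered for 1 day. The treatment entry in the labels, by contrast, reads as untreated. The labels give the tissue as colon, the genotypes as Control and Islr knockout, and neither strain, age nor how the knockout was made. The series text mentions flow separation without naming a gated population. Probes of all 10 listed epithelial markers, all 8 smooth muscle markers and all 8 fibroblast markers were well above background on all 6 arrays. In RNA of mixed tissue, fewer endothelial cells and less RNA per endothelial cell cannot be told apart.

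Blood vessels are lined by endothelial cells joined by VE-cadherin (Cdh5) and PECAM-1 (Pecam1). Secreted VEGF ligands act on the tyrosine kinase receptors encoded by Flt1, Kdr and Flt4, with neuropilins as co-receptors, and drive sprouting and permeability. Angiopoietins act on the receptor encoded by Tek: Angpt1 steadies the vessel wall, and Angpt2, released by activated endothelium, loosens it. Lymphatic endothelium, which drains tissue fluid, depends on Vegfc acting on Flt4 and on the transcription factor Prox1. In the inflamed colon the vascular bed widens and sprouts during injury and repair.

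Values are log2 processed signals relative to the 75th percentile of the array, so 0 is that percentile, and a difference is knockout minus control. Spots that the scanner software marked as outliers were left out of the limma test and are included where the values of single animals are given. A call is a limma adjusted p under 0.05 over 35351 tested probes. At that threshold 1403 probes were called, or 3.97% (855, or 2.42%, lower), with 39.1% of the called probes higher in the knockout (51.1% with normexp background correction). With each gene read at its brightest tested probe, 405 of 16451 genes were called lower, or 2.46%. Islr itself was at 1.57, 1.24 and 1.21 in control replicates 1, 2 and 3 and at -1.40, -0.93 and -1.31 in knockout replicates 1, 2 and 3, a difference of -2.44 (SE 0.21, limma adjusted p 0.0171). Knockout replicate 1 stood apart from the other knockouts at blood endothelial genes and at fibroblast markers. At macrophage markers its median relative to the control mean (-1.11) lay near that of replicate 3 (-0.93), with replicate 2 at -0.44. Replicate 1 was the lowest knockout at 22 of the 24 blood endothelial genes (91.7%), at 7 of 8 fibroblast markers (87.5%) and at 8 of 10 macrophage markers (80.0%), against 39.8% of all genes tested with outlier spots kept. Its array had the lowest 75th percentile (4910 intensity units, the others 5774 to 7110) and the most outlier spots (16.0%, the others 3.26% to 13.6%). The arrays shared 1 slide, with the genotypes in separate rows, so row and genotype cannot be told apart.

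Of the members, 35 of 36 could be tested and 6 were called, all lower in the knockout: the ligands Angpt1, Angpt2 and Pgf and the blood endothelial genes Erg, Apln and Esm1. That is 17.1% of those tested, beside 2.46% of all genes. The remaining member, Cdh5, had outlier marks on 3 arrays and was tested only with outlier spots kept. Of the 35, 34 had a negative difference at the brightest tested probe, against 48.8% of all genes, and the exception was Nrp2. Vegfa is counted as negative by this rule, although a further probe of it had a positive difference. The median difference was -0.99 over the members and 0.01 over all genes, and 17 of the 35 were lower by at least 1, against 6.43% of all genes. Among the members tested, Erg, Apln, Sox17 and Flt4 met the filter on dim probes through the controls alone, so for them a difference was built into the filter. Of the 31 members above background on all 6 arrays, 4 were called (Esm1, Angpt1, Angpt2 and Pgf), beside 1.98% of all genes so chosen, and their median was -0.89; this restriction was added after seeing the data. With outlier spots kept, all 36 members could be tested, 8 were called lower (with Sox7 and Lyve1 added), beside 2.76% of all genes, and the median was -0.93.

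**Figure D1:**
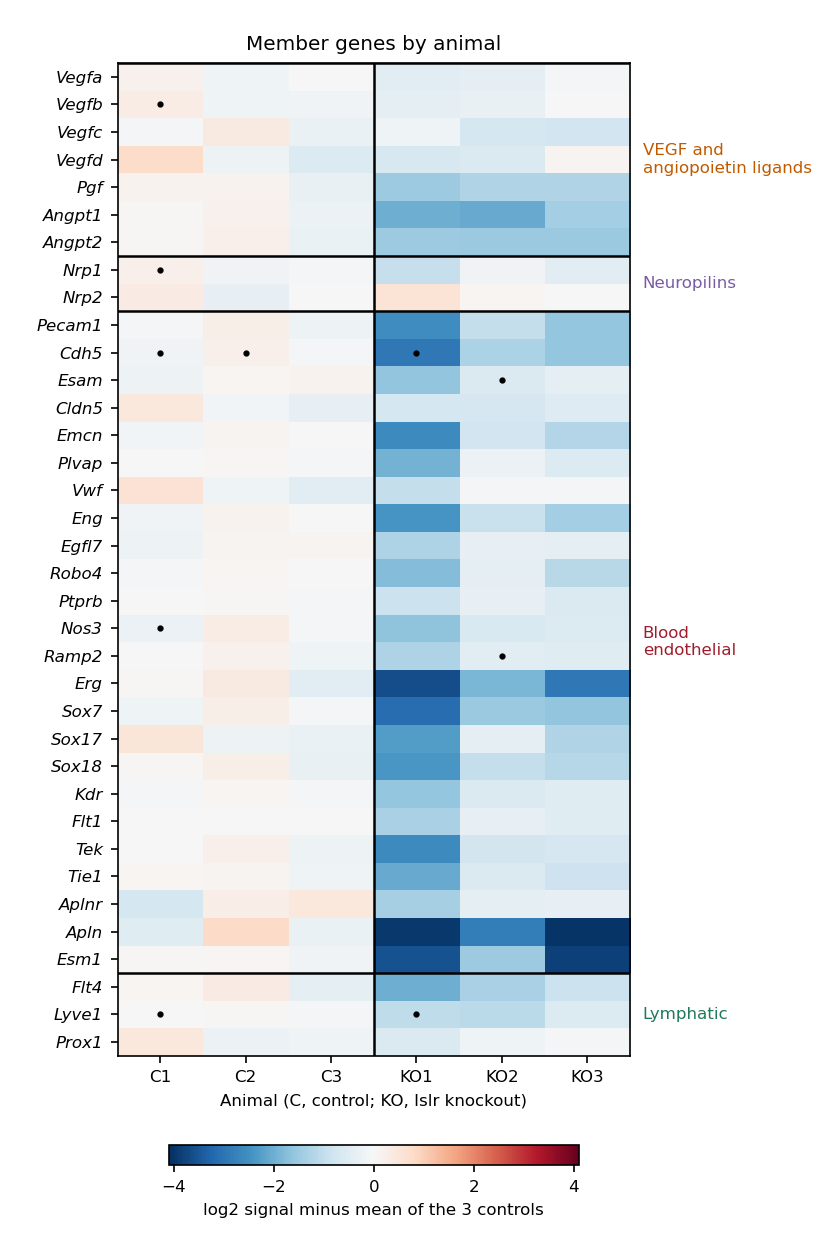
Log2 signal of each of the 36 members at its representative probe in each of the 6 mice (columns), minus the mean of the 3 controls, with blue for lower and red for higher; black dots mark outlier spots, which are included. Most blood endothelial rows are darkest in knockout replicate 1, whereas Angpt1, Angpt2 and Pgf are blue to a like degree in all 3 knockouts.

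The calls rested on few animals. Each of the 6 called genes kept its negative difference in all 6 fits that left out an array. Leaving out control replicate 2 ended all 6 calls, as did leaving out knockout replicate 1 and leaving out knockout replicate 3. Without control replicate 3 only Angpt2 was called among the members, and without control replicate 1 there were 5, with Esm1 lost. Without knockout replicate 2 there were 9 calls, the same 6 with Pecam1, Eng and Robo4. Without knockout replicate 1 the single call was Sox7, with a difference of -1.56 (limma adjusted p 0.0448). Exact permutation of 3 against 3 arrays cannot give a two-sided p below 0.1, which is the value for every member whose groups did not overlap.

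Of the 7 ligands, Angpt1, Angpt2 and Pgf fell and Vegfa, Vegfb, Vegfc and Vegfd did not pass the test. Angpt1, made mainly by cells around the vessel, was at -0.13, -0.02 and -0.42 in controls and at -2.18, -2.27 and -1.58 in knockouts. The difference was -1.82 (SE 0.23), a 3.53-fold lower signal, with a limma adjusted p of 0.0260. Every knockout lay below every control by more than the spread within either group. Angpt2, the ligand stored and released by activated endothelium, was at -2.20, -2.05 and -2.55 in controls and at -3.75, -3.79 and -3.78 in knockouts. The 3 knockouts lay within 0.044 of each other and apart from the controls. The difference was -1.50 (SE 0.17), or 2.84-fold lower, with a limma adjusted p of 0.0227. Pgf, the placental growth factor that binds the receptor encoded by Flt1, was at -1.11, -1.12 and -1.56 in controls and at -2.76, -2.49 and -2.51 in knockouts. It differed by -1.32 (SE 0.19, 2.50-fold lower, limma adjusted p 0.0299), again with no overlap. Unlike at most endothelial genes, knockout replicate 1 was close to the other knockouts at these 3 ligands, and without it their differences were -1.73, -1.52 and -1.23 for Angpt1, Angpt2 and Pgf. When an array was left out, the adjusted p ran from 0.0367 to 0.0771 for Angpt1, from 0.0312 to 0.0730 for Angpt2 and from 0.0398 to 0.0924 for Pgf. Under median centring Angpt2 and Pgf missed the threshold (limma adjusted p 0.0656 and 0.0829).

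The VEGF ligands were closer between the groups. Vegfa, the main driver of blood vessel growth, was read by 4 probes. Its brightest probe (A_52_P638895) was at 1.06, 0.72 and 0.88 in controls and at 0.41, 0.47 and 0.80 in knockouts, so the groups overlapped, and the difference was -0.32 (SE 0.18, limma adjusted p 0.292). The probes of Vegfa disagreed. Probe A_51_P482552 was at -0.07, -0.53 and -0.23 in controls and at 0.07, 0.10 and 0.15 in knockouts, a difference of 0.38 (SE 0.17, limma adjusted p 0.206). At this probe all knockouts lay above all controls, so no direction is given for Vegfa as a gene. The other 2 probes gave -0.30 and -0.47, and none of the 4 was called. Vegfc, the lymphatic growth factor, differed by -0.56 (SE 0.25, limma adjusted p 0.207) at its brighter probe and by -0.37 at the other, with overlap at both. Vegfd, a ligand of the receptor encoded by Flt4, differed by -0.38 (SE 0.38) and -0.05 (SE 0.38) at its 2 probes. Vegfb, a ligand of the Flt1 receptor, differed by -0.09 (SE 0.19) with the outlier spot of control replicate 1 left out. For Vegfb and Vegfd the SE was as large as the difference or larger, so no equality between the genotypes is shown.

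**Figure D2:**
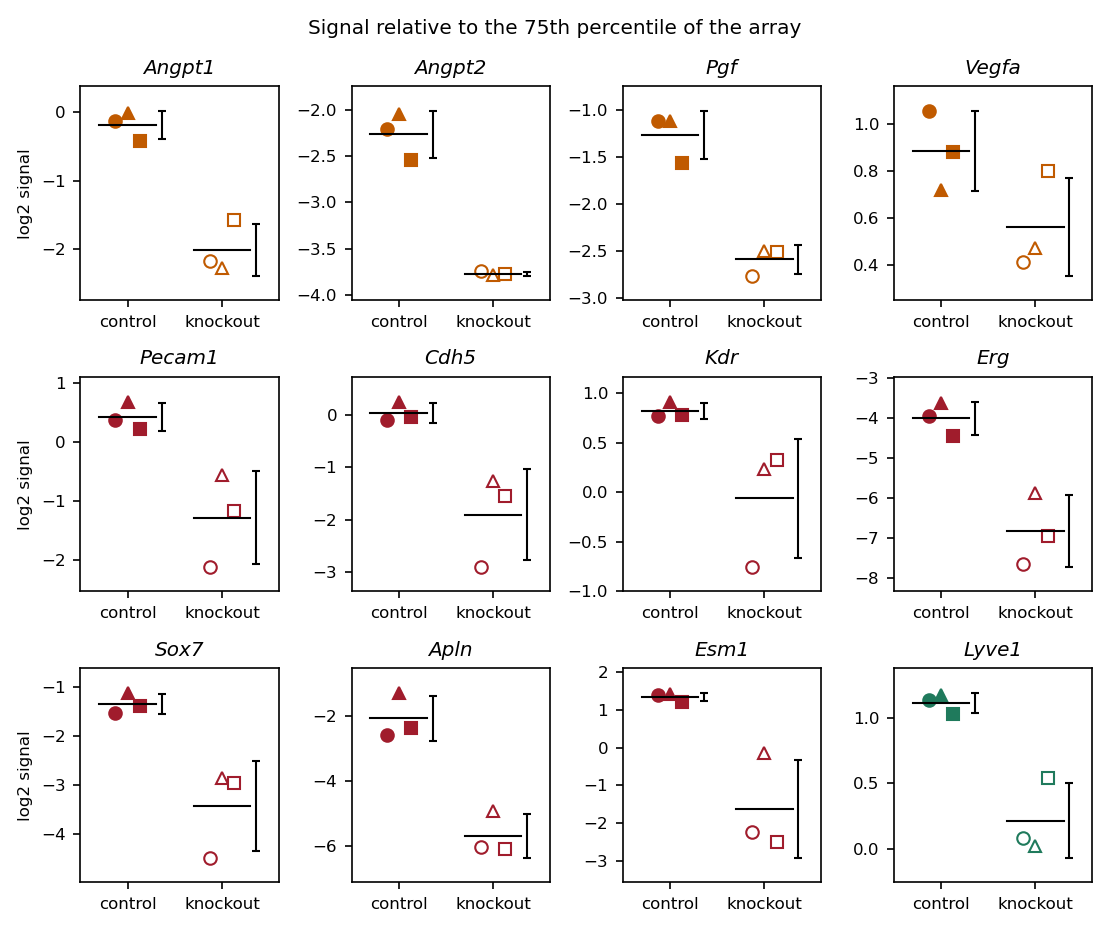
Log2 signal relative to the 75th percentile of the array for 12 members in each mouse (filled, controls; open, knockouts; circle, triangle and square for replicates 1, 2 and 3), with outlier spots included, the group mean (line) and its SD (bar at the right, n = 3 each); the vertical scale differs between panels. Angpt2 is nearly the same in the 3 knockouts, Pecam1, Cdh5, Kdr and Sox7 are lowest in knockout replicate 1, and Apln and Esm1 are low in knockout replicates 1 and 3. Apln was well above background on only 1 of 3 knockout arrays.

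None of the receptor genes of blood endothelium was called, and all had negative differences. Kdr, which encodes the main signalling receptor for VEGF, was at 0.77, 0.91 and 0.78 in controls and at -0.75, 0.23 and 0.33 in knockouts. The difference was -0.88 (SE 0.30, limma adjusted p 0.123), and -0.54 without knockout replicate 1. The groups did not overlap, but the knockouts were spread over 1.08 and the controls over far less. Flt1, a VEGF receptor that also acts as a decoy, differed by -0.71 (SE 0.27, limma adjusted p 0.157). Tek, the angiopoietin receptor, was at -2.24, -2.04 and -2.43 in controls and at -4.86, -3.001 and -2.91 in knockouts. Its difference of -1.36 (SE 0.52, limma adjusted p 0.155) was -0.72 without knockout replicate 1. Tie1, the partner receptor of Tek, was at -1.21, -1.19 and -1.47 in controls and at -3.36, -1.89 and -2.13 in knockouts, a difference of -1.17 (SE 0.38, limma adjusted p 0.114) that was -0.72 without knockout replicate 1. Aplnr, the receptor for apelin, overlapped between the groups and differed by -0.69 (SE 0.40, limma adjusted p 0.320). Thus the receptor Tek had a wide spread among knockouts where its ligands Angpt1 and Angpt2 had a narrow one.

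The neuropilins, which many non-endothelial cells also express, showed no call at any of their probes. The brightest Nrp1 probe differed by -0.41 (SE 0.27, limma adjusted p 0.391) and a dim probe by -1.32 (SE 0.37, limma adjusted p 0.0879). A probe of intermediate brightness was an outlier spot on 5 arrays and differed by -0.63 with these spots kept. The brightest Nrp2 probe differed by 0.22 (SE 0.25, limma adjusted p 0.599), whereas its other testable probe differed by -0.47 (SE 0.18, limma adjusted p 0.162). The probes of Nrp2 carry different transcript accessions and disagreed in direction, so no direction is given for the gene.

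A further group of 13 blood endothelial genes encodes surface, junction and secreted proteins, with the enzyme gene Nos3 placed among them. None was called, although all knockouts lay below all controls at 12 of them, the exception being Vwf. For comparison, 18.8% of all genes tested with outlier spots kept showed all knockouts below all controls. Pecam1, the adhesion molecule of endothelial junctions, was at 0.37, 0.68 and 0.22 in controls and at -2.11, -0.56 and -1.18 in knockouts. The difference was -1.70 (SE 0.39), or 3.26-fold lower, with a limma adjusted p of 0.0602. Cdh5, the cadherin that holds endothelial cells together, was at -0.09, 0.25 and -0.05 in controls and at -2.89, -1.27 and -1.55 in knockouts with outlier spots kept, a difference of -1.94 (SE 0.42, limma adjusted p 0.0506). Both genes had the same order of knockouts, with replicate 1 lowest and replicate 2 highest. Eng (endoglin, a co-receptor for TGF-beta family ligands) was at 0.46, 0.73 and 0.60 in controls and at -1.82, -0.31 and -0.81 in knockouts (difference -1.58, SE 0.37, limma adjusted p 0.0636). Emcn, an endothelial sialomucin, was at 1.14, 1.35 and 1.24 in controls and at -1.35, 0.47 and 0.04 in knockouts (difference -1.53, SE 0.45, limma adjusted p 0.0933). Robo4, a guidance receptor that steadies vessels, was at 1.44, 1.59 and 1.52 in controls and at -0.27, 1.11 and 0.39 in knockouts (difference -1.11, SE 0.34, limma adjusted p 0.0993). These 3 repeated the order seen at Pecam1.

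The other genes of this group had smaller differences. Nos3, the endothelial nitric oxide synthase, gave -1.06 (SE 0.38), and Esam, a junction protein, gave -0.99 (SE 0.38). Plvap, the diaphragm protein of fenestrated capillaries, was tight in controls, at 1.73 to 1.81, and at -0.17, 1.54 and 1.21 in knockouts, a difference of -0.91 (SE 0.43) that was -0.40 without knockout replicate 1. Ramp2, which pairs with the adrenomedullin receptor, gave -0.89 at its brighter probe and -1.01 at the other. Egfl7, a secreted vascular protein, gave -0.67, Cldn5, a tight junction claudin, gave -0.64, and Ptprb, the phosphatase that opposes Tek, gave -0.60. Vwf, the clotting factor stored in endothelium and also carried by platelets, overlapped between the groups, with 1.33, 0.56 and 0.32 in controls and -0.25, 0.65 and 0.68 in knockouts (difference -0.38, SE 0.36, limma adjusted p 0.538). Without knockout replicate 1 the Vwf difference was -0.07. Differences within this group thus ran from -0.38 for Vwf to -1.70 for Pecam1 in the fit without outlier spots.

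Of the 4 blood endothelial transcription factors only Erg passed the test, and the size of its fall is uncertain. Sox7, Sox17 and Sox18 did not pass. Erg encodes an ETS family factor that keeps endothelial identity and junctions. Its probe was at -3.95, -3.63 and -4.45 in controls and at -7.65, -5.88 and -6.94 in knockouts, and it was not well above background on any knockout array. The log2 difference was -2.82 (SE 0.46, limma adjusted p 0.0360), from knockout values not well above background. Each knockout value was then replaced by the dimmest signal still well above background on that array, or kept if brighter. So read, the signal was 2.82-fold higher in controls. That fold depends on the floor chosen and is not a firm minimum. When an array was left out, the adjusted p for Erg ran from 0.0235 to 0.0975. With no background filter it was 0.0562, and with normexp the Erg difference was -1.28. Sox7, a SOXF factor of endothelium, was at -1.53, -1.11 and -1.38 in controls and at -4.48, -2.85 and -2.96 in knockouts. The difference was -2.09 (SE 0.44), 4.24-fold lower, and just missed the threshold (limma adjusted p 0.0527, and 0.0490 with outlier spots kept). Sox18, of the same family, was at -0.17, 0.01 and -0.53 in controls and at -2.62, -1.22 and -1.40 in knockouts (difference -1.52, SE 0.39, limma adjusted p 0.0723). Sox17, the arterial member of the family, was at -2.73, -3.42 and -3.49 in controls and at -5.50, -3.59 and -4.46 in knockouts at its brighter probe (difference -1.30, SE 0.48, limma adjusted p 0.148). Its knockout replicate 2 lay only just below the lowest control, and a dimmer Sox17 probe overlapped, with a difference of -0.20 (SE 0.20). With normexp the brighter probe gave -0.79. The SOXF genes thus shared the low value of knockout replicate 1.

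Apln and Esm1, which sprouting tip cells express strongly in response to VEGF, both fell. Apln encodes apelin, the ligand of Aplnr, and Esm1 encodes a secreted proteoglycan that binds VEGF. Apln was at -2.60, -1.30 and -2.37 in controls and at -6.06, -4.93 and -6.12 in knockouts. The difference was -3.61 (SE 0.45), with a limma adjusted p of 0.0251, but the probe was well above background on only 1 of 3 knockout arrays, so the size of the fall is uncertain, and with normexp background correction the difference was -2.37. Esm1 was well above background on all arrays, at 1.40, 1.41 and 1.21 in controls and at -2.24, -0.14 and -2.49 in knockouts. The controls lay within 0.20 of each other and the knockouts were spread over 2.34. The difference was -2.97 (SE 0.59), or 7.81-fold lower, with a limma adjusted p of 0.0479. At Esm1 knockout replicate 3 was as low as replicate 1, whereas at Pecam1, Cdh5 and Kdr replicate 3 lay nearer to replicate 2. Apln read like Esm1, but with only 1 of 3 knockout arrays well above background its low values cannot rank the animals. Relative to the control mean, knockout replicates 1, 2 and 3 stood at -3.97, -2.84 and -4.03 for Apln and at -3.58, -1.49 and -3.83 for Esm1, beside blood endothelial medians of -2.01, -0.61 and -0.76. When an array was left out, the adjusted p ran from 0.0233 to 0.0682 for Apln and from 0.0111 to 0.127 for Esm1. With no background filter Esm1 missed the threshold (limma adjusted p 0.0754).

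Apln and Esm1, the called tip cell genes, are shown with their promoters: the 250 bases before their transcription starts, from RefSeq (GRCm38.p6) and read 5′ to 3′ along the gene. Capitals mark matches to AGGAAG, a motif of the ETS family, to which Erg belongs, or to its reverse complement CTTCCT.
Apln (chrX:48034854-48035103, minus strand): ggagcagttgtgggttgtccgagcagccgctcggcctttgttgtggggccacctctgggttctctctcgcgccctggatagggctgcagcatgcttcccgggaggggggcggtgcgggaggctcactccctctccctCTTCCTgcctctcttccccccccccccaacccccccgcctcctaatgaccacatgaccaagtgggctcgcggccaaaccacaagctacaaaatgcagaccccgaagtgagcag
Esm1 (chr13:113209409-113209658, plus strand): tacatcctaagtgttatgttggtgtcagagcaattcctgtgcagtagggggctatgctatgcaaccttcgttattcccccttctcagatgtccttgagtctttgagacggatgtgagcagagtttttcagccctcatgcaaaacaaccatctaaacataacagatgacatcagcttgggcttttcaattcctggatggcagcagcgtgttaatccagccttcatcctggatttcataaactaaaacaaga
The Apln window held 1 match and the Esm1 window 0. Promoters were listed for 21 of the 36 members, with 28 starts, and 10 of these 28 windows (35.7%) held the motif on either strand, against 29.5% of all 32851 listed windows of this length. A match is a description of these letters only.

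The 3 lymphatic genes had no call in the fit without outlier spots. Flt4, the receptor for Vegfc, was at -3.82, -3.56 and -4.31 in controls and at -5.89, -5.24 and -4.77 in knockouts. The groups did not overlap, knockout replicate 1 was not well above background, and the difference was -1.41 (SE 0.33, limma adjusted p 0.0634), or -1.11 without that replicate and -0.81 with normexp. Lyve1, the hyaluronan receptor of lymphatic vessels that some macrophages also carry, was at 1.14, 1.18 and 1.03 in controls and at 0.09, 0.02 and 0.54 in knockouts. It differed by -0.82 (SE 0.26, limma adjusted p 0.138) without the 2 outlier spots and by -0.90 (SE 0.19, limma adjusted p 0.0487) with them. That second call was lost whichever array was left out. Prox1, the master regulator of lymphatic identity, was at -3.22, -3.90 and -3.82 in controls and at -4.24, -3.84 and -3.69 in knockouts. Its groups overlapped and the difference was -0.28 (SE 0.25, limma adjusted p 0.511). Prox1 is also made by enteroendocrine cells, whose share in these arrays was not tested.

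The classes are given side by side. The median difference was -1.11 over the 23 blood endothelial genes tested, -0.82 over the 3 lymphatic genes and -0.56 over the 7 ligands, against 0.01 over all genes. Relative to the control mean, the blood endothelial median stood at -2.01 in knockout replicate 1, -0.61 in replicate 2 and -0.76 in replicate 3. The ligand median stood at -0.65, -0.72 and -0.80 in the same animals, so knockout replicate 1 did not have the lowest median there. It was still the lowest knockout at 4 of the 7 ligands (57.1%), against 39.8% of all genes tested with outlier spots kept. The lymphatic median stood at -1.03, -1.10 and -0.57. Without knockout replicate 1 the blood endothelial median was -0.72 over 22 genes, the lymphatic one -0.82 and the ligand one -0.76. The lymphatic median is the value of Lyve1 in both fits. Its spot in knockout replicate 1 was already left out as an outlier, so that median could not move. Without that replicate Flt4 went from -1.41 to -1.11 and Prox1 from -0.28 to -0.12. Whether the classes differ from each other was not tested, since they were chosen with the data known. The ligand median is that of a mixed class, with 3 called genes at -1.82 to -1.32 and 4 VEGF genes at -0.56 to -0.09.

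**Figure D3:**
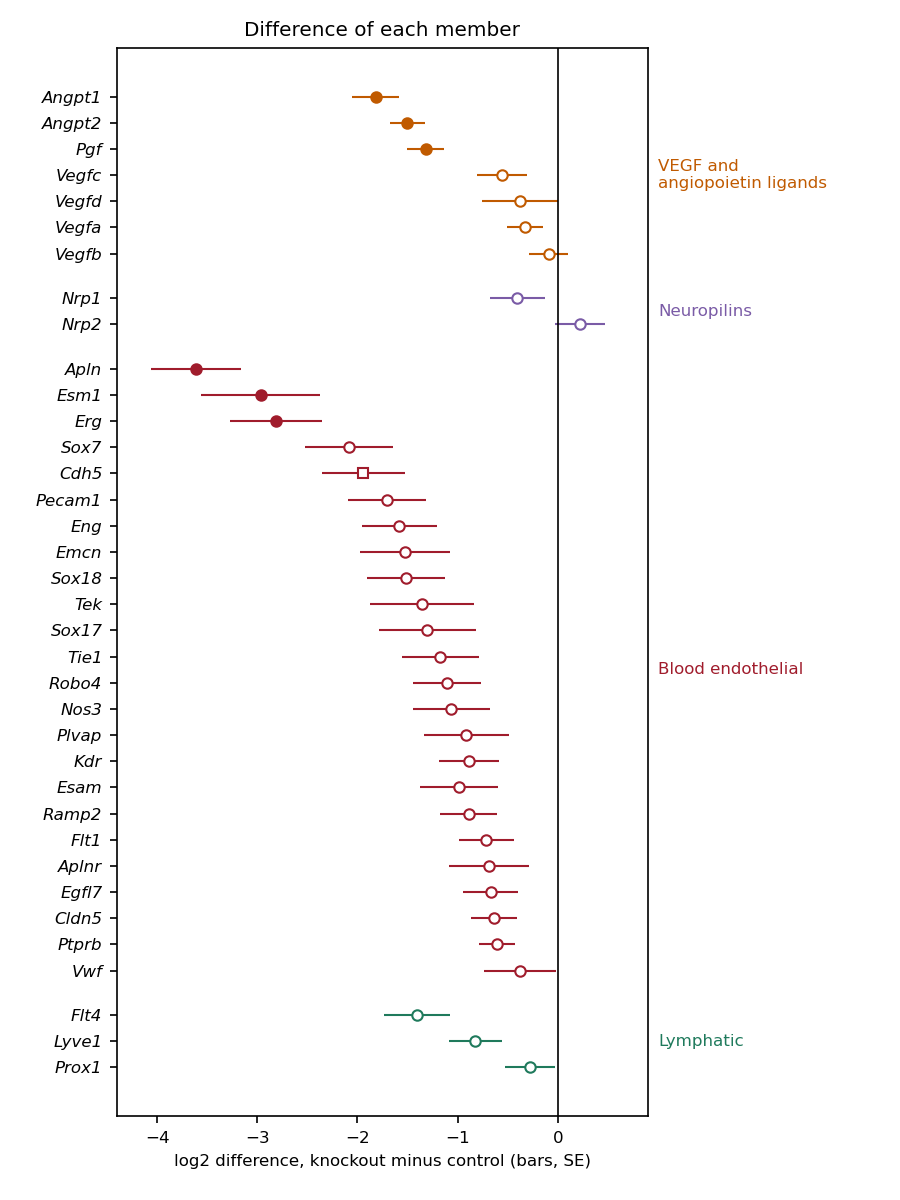
Difference between knockout and control in limma for each of the 36 members, on the log2 scale with its SE (horizontal bars), by class; filled circles were called at an adjusted p under 0.05, open circles were not, and the open square (Cdh5) was tested with outlier spots kept only. The filled points are Angpt1, Angpt2, Pgf, Apln, Esm1 and Erg.

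Other endothelial genes were read from lists that are not members. Of 22 further endothelial genes 21 were tested, 19 with a negative difference and a median of -0.76, and 2 fell: Dll4, the Notch ligand of tip cells (-1.14, SE 0.21, limma adjusted p 0.0441), and Tm4sf1, an endothelial surface protein (-1.23, SE 0.25, limma adjusted p 0.0479). Of 6 venular adhesion genes 5 were tested, all with a negative difference and a median of -1.21, and 0 were called at the brightest probe. Icam1, which leukocytes bind, had the lowest p of these at -1.21 (SE 0.29, limma adjusted p 0.0649), and Selp, the P-selectin of endothelium and platelets, was called at a further probe. Of 10 further lymphatic genes 8 were tested with a median of -0.85, and 1 fell, Foxc2, a factor of lymphatic valves (-1.90, SE 0.26, limma adjusted p 0.0284). Of 16 genes that modulate the VEGF and angiopoietin pathways 15 were tested, and 3 fell. These were Angptl4, a secreted angiopoietin-like protein (-1.69, SE 0.17, limma adjusted p 0.0171), Col18a1, the source of endostatin (-2.04, SE 0.36, limma adjusted p 0.0401), and Dll1, a Notch ligand (-1.06, SE 0.19, limma adjusted p 0.0416). No gene of these 4 lists was called higher, and 3.81% of all genes were called in either direction.

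**Figure D4:**
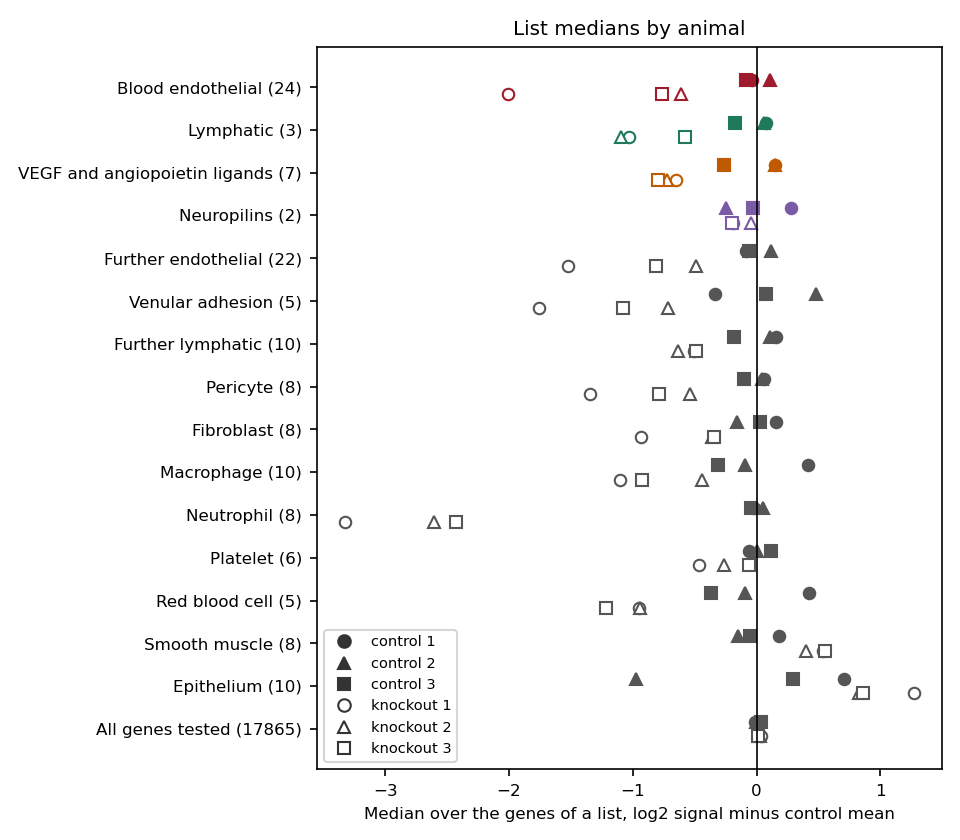
Median over the genes of each list (number in brackets) of the log2 signal minus the control mean, in each mouse (filled, controls; open, knockouts; circle, triangle and square for replicates 1, 2 and 3), with outlier spots included. Blood endothelial, further endothelial, venular, pericyte, fibroblast, macrophage, neutrophil and platelet lists are lowest in knockout replicate 1. Epithelium, whose controls are widely spread, is highest there.

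Markers of other cells also had summed signals that differed between the groups, and their part in these results was not tested. Pericytes wrap small vessels; of 8 markers 5 were tested, all 5 negative with a median of -0.88, and Pdgfrb fell (-1.17, SE 0.20, limma adjusted p 0.0395). The summed pericyte signal, in multiples of the 75th percentile, was 21.0 to 23.5 in controls and 10.5 to 15.04 in knockouts, lowest in knockout replicate 1. That sum includes Rgs5, untested for its outlier spots, at 2.81, 1.87 and 1.93 in controls and at 2.28, 1.95 and 1.88 in knockouts. Rgs5 and Higd1b (-0.11, SE 0.24, limma adjusted p 0.793) overlapped between the groups. With outlier spots kept, 6 of the 8 markers had all knockouts below all controls, against 18.8% of all genes. Fibroblast markers had a median of -0.52 with 0 of 8 called (lowest p for Lum, -0.83, SE 0.27, limma adjusted p 0.117) and sums of 43.9 to 52.6 and 31.2 to 40.7. Macrophage markers had a median of -0.69 with 0 of 8 called (lowest p for C1qb, -0.91, SE 0.27, limma adjusted p 0.0975) and sums of 22.9 to 33.3 and 14.8 to 21.2. Neutrophil markers, which lie inside vessels as well as in tissue, had 6 of 8 called lower (S100a8, S100a9, Retnlg, Cxcr2, Mmp8 and Camp) and 1, Ltf, called higher. The remaining tested marker, Csf3r, was the brightest and was not called (0.17, SE 0.14, limma adjusted p 0.483). Neutrophil sums were 20.0 to 21.2 and 10.4 to 11.1, and Csf3r made up most of the sum in knockouts. Among platelet markers Ppbp was called lower and was not well above background on any knockout array. The other 4 tested were not called, and Gp6 (0.53) and Treml1 (0.34) had positive differences. Platelet sums of 2.18 to 4.66 and 1.097 to 1.59 were mostly Pf4 in controls, an untested probe with outlier spots, and were 0.842 to 0.856 and 0.640 to 0.735 without it. Gp1ba was not well above background on any array. Among red cell markers Slc4a1 was called lower, with sums of 5.31 to 11.46 and 3.12 to 4.49. Slc4a1 also met that filter through the controls alone, with 2 of 3 knockout arrays well above background. The red cell sums include Hbb-bt, an untested probe with outlier spots on all control arrays. In the other direction, smooth muscle had a median of 0.42 with 0 of 6 called (lowest p for Synm, 0.67, SE 0.17, limma adjusted p 0.0688) and sums of 40.1 to 50.8 and 56.9 to 65.5. Epithelial markers had a median of 0.92 with 0 of 8 called (lowest p for Krt18, 1.33, SE 0.33, limma adjusted p 0.0803), with sums of 26.3 to 74.4 in controls and 84.1 to 110.9 in knockouts. The sums of the 2 groups did not overlap for any of these 8 lists. A sum is carried by its brightest probes and includes outlier spots and untested probes. Among single genes tested with outlier spots kept, 18.8% had all knockouts below all controls, and no such share was taken for sums. The count of lists is therefore a description only.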

How the data were processed

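Each spot's processed signal, as deposited, is a linear intensity that was background-subtracted and detrended by Agilent Feature Extraction 11.5.1.1 and not scaled between arrays, per the file headers; the submitters' processing notes name version 10.7. Only the red channel is held, although the labels name Cy3. The deposited value table also holds intensities and matched the processed signals of the same samples (log2 correlation of at least 0.99998). Its medians were 489 to 825, and it served as an alternative.

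From log2 of that signal, the array's 75th percentile over 59305 non-control spots was subtracted. Outlier spots were left out and spots of a probe averaged. A probe was tested if well above background on all 3 arrays of a group and if each group kept 2 or more usable values, leaving 35351 of 56605 probes. The two-sided tests were those of limma (version 3.58.1, lmFit then eBayes, under R 4.3.3) with Benjamini-Hochberg adjustment over these probes. Arrays number 3 per group, which limits precision. In a simulation of the knockout against control test with 35351 probes, 9.09% of 66 probes changed by 1 on the log2 scale were recovered, 52.2% of 67 changed by 2 and 83.6% of 67 changed by 3, with 2 false calls. Noise was drawn independently for each probe and array. Shifts shared by many genes of an array were not simulated, so the false calls in these data are not estimated by it.

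Probes were named by RefSeq accession without version in the annotation of GRCm38.p6 (33767 of 56605 probes). The files place probes on mm9, so no probe coordinates are given. The coordinates of the Apln and Esm1 promoter windows are those of GRCm38.p6. The members, classes and lists were chosen with earlier results of these data known. Values of every animal are given for members called at any probe, for members without overlap and a difference of at least 1 with 6 usable arrays, and for Pecam1, Cdh5, Kdr, Flt4, Prox1, Lyve1, Vegfa and Angpt2; of other lists, called genes or the lowest p are named. Plvap and Vwf and a second Vegfa probe were singled out with their values in view, and 1 listed marker is not reported here. The alternatives are normexp (offset 50), quantile normalization, median centring, outlier spots kept, no background filter, array weights, the value table, another probe rule and each array left out.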

Additional observations from a re-analysis of the deposited data

How the results depend on the processing

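The number of arrays limited these results. The count of called probes was 1403, and it was 2558 with normexp, 2185 with quantile normalization, 903 with median centring, 2274 from the value table, 484 without a background filter and 9292 with array weights; with 1 array left out it ran from 40 to 2114, and from 120 to 3185 with outlier spots kept as well, a combination chosen after seeing the data (178 and 278 when the omitted array was control replicate 2 or 3, and 378 for knockout replicate 1). The count of called members was 6, and it was 10 with normexp, 8 with quantile normalization and with outlier spots kept, 9 from the value table, 5 with median centring, 4 without a background filter, 4 over genes above background on all 6 arrays and 19 with array weights, with a range of 0 to 9 when 1 array was left out and of 1 to 9 with outlier spots kept as well (2 without control replicate 3, 3 without knockout replicate 1). The median was -0.37 for the ligands with median centring, where the median of all genes was 0.19, and -0.89 with array weights. With 1 array left out it ran from -1.08 to -0.48 for the ligands, from -1.45 to -0.72 for blood endothelial genes and from -1.03 to -0.82 for lymphatic genes, with gene sets that shift as well: the -1.08 is over 6 ligands and the -1.03 over 2 lymphatic genes. With normexp, the dim genes Apln, Erg, Flt4 and Sox17 shrank to -2.37, -1.28, -0.81 and -0.79. Signs turned for Vegfb with median centring (0.26), for Vwf (0.0090) and Prox1 (0.032) with array weights, for Nrp2 when its probes were combined by the median (-0.12) and for the neuropilin median with median centring (0.18) and array weights (0.036); the cause of these shifts was not tested. Cdh5 could not be tested without its outlier spots. No paired analysis was possible because the labels give the animals no shared numbers.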
